A study of Homo sapiens with 4 samples.

Results

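Eukaryotic translation initiation and elongation factors were examined in H1299. This established line comes from a human non-small cell lung carcinoma without p53 of its own, and the cells used here stably carried mouse p53 under tet-on control. The genes were chosen by symbol, as all measured genes whose symbol began with EIF1 to EIF6 or with EEF1 or EEF2, leaving out the eIF2 kinases (symbols beginning EIF2AK), and 58 of the 18417 measured genes qualified. Of these, 56 are factors, factor regulators or enzymes that modify factors, and the other 2 share only the symbol: EIF3J-DT, a noncoding transcript, and EEF1DP3, a transcribed pseudogene. EIF4A1, EIF5A, EIF3C and EIF4EBP3 are not among them, because their probe sets were assigned to several genes, and EEF1E1 and EIF4G3 were not analysed here. EIF1AY, which lies on the Y chromosome, is counted without its level.

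Total RNA of the construct line was measured with Affymetrix arrays before induction (2 arrays) and after 24 hours in 0.5 µg/mL doxycycline (2 arrays). All 4 arrays came from a single stable line in tetracycline-free serum, the uninduced cells carried the construct too, and no sample had doxycycline without the construct, so effects of p53 and of the drug cannot be told apart. The labels call the arrays of a group technical replicates, so each p-value measures only the spread between arrays. The design asks how the transcriptome changes when p53 is switched on in a p53-null background.

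Translation of most mRNAs starts when eIF4E binds the cap at the 5′ end, the scaffold eIF4G joins it to the helicase eIF4A, and eIF3 brings in the small ribosomal subunit with eIF1, eIF1A and the initiator tRNA held by eIF2 and GTP. The guanine nucleotide exchange factor eIF2B recharges eIF2 after each round, and kinases that phosphorylate eIF2 block that step. The 4E-binding proteins hold eIF4E away from eIF4G until mTORC1 phosphorylates them. The elongation factors eEF1A, which delivers aminoacyl-tRNA, and eEF2, which moves the ribosome along by a codon, then carry synthesis forward. Many mRNAs of this machinery start with a C followed by a run of pyrimidines, the terminal oligopyrimidine (TOP) start, through which mTORC1 and LARP1 control their translation.

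Across genes, which are not independent replicates, the pair of uninduced arrays correlated at r = 0.997 and the induced pair at 0.995, against 0.917 to 0.921 between groups, and array medians lay between 7.26 and 7.33 log2 units. The p53 targets CDKN1A and MDM2 rose 10.8-fold and 7.39-fold on induction, which is the direction the labels call for. KRT18 (11.14 log2 units, uninduced mean) and VIM (12.72) were bright, while the epithelial markers EPCAM (5.45) and CDH1 (5.89) and the 4 lung markers (6.18 to 6.64) were low. On induction the epithelial marker KRT8 rose 2.21-fold, while KRT18, KRT19 (uninduced mean 6.755), EPCAM and CDH1 did not pass the test. The lung marker SCGB1A1 rose 4.08-fold (from 6.59 and 6.41 to 8.53 on both induced arrays) and SFTPC rose 1.23-fold, while NKX2-1 and SFTPB did not pass. Of the mesenchymal markers, VIM and CDH2 were called lower (log2 fold changes -0.40 and -0.345) and FN1 higher (0.305). The part of these marker changes in the results below was not tested. Of 11 blood, endothelial and fibroblast markers, 10 were measured, at uninduced means of 3.98 to 7.96 with a median of 5.97 (6.18 induced), and 1 was called. In bulk RNA, fewer cells of a kind and less RNA per cell cannot be told apart.

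On induction the translation factors moved in both directions, and more fell than rose. A gene was called changed at an adjusted p under 0.05 (limma, Benjamini-Hochberg over all 18417 genes). By that rule 33 of the 58 members were called, which is 56.9% against 45.1% of all genes. Among them 11 rose (19.0%, against 20.6% of all genes) and 22 fell (37.9%, against 24.6%). Changes of at least 1.5-fold were fewer: 2 members rose that far (3.45%, against 12.3% of all genes) and 10 fell that far (17.2%, against 14.4%). The median log2 fold change of the members was -0.16, and that of all genes was 0. The members are bright, with a median level of 10.3 against 7.74 log2 units for all genes, and bright genes were called more often. Among the 11053 genes left after dim genes were taken out, 68.5% of 54 members and 68.0% of all genes were called, so the share of members called was near the background. In that set 42.6% of members and 37.6% of all genes fell, and 25.9% and 30.4% rose.

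The number of calls depended on the arrays. Without uninduced array 1, 4 members rose (6.90%, against 12.9% of all genes in that fit) and 11 fell (19.0%, against 14.5%). Without uninduced array 2, 3 rose (5.17%, against 12.6%) and 10 fell (17.2%, against 14.4%). Without induced array 1, 6 rose (10.3%, against 16.4%) and 16 fell (27.6%, against 20.3%). Without induced array 2, 7 rose (12.1%, against 16.9%) and 19 fell (32.8%, against 20.6%). Of the 33 called members, 13 were called in the same direction without each array in turn and under all 12 alternatives: EIF4EBP2, EIF2D, EEF1A2, EEF1AKMT2, EEF1AKMT3, EEF2KMT, EIF4EBP1, EIF1AX, EIF3B, EIF2S1, EIF2B4, EIF4A2 and EIF6. The other 20 calls were lost in at least 1 of these, and those of EEF1B2, EEF1D, EIF3L, EIF3M, EIF4ENIF1 and EIF5 were lost whichever array was left out.

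**Figure D1:**
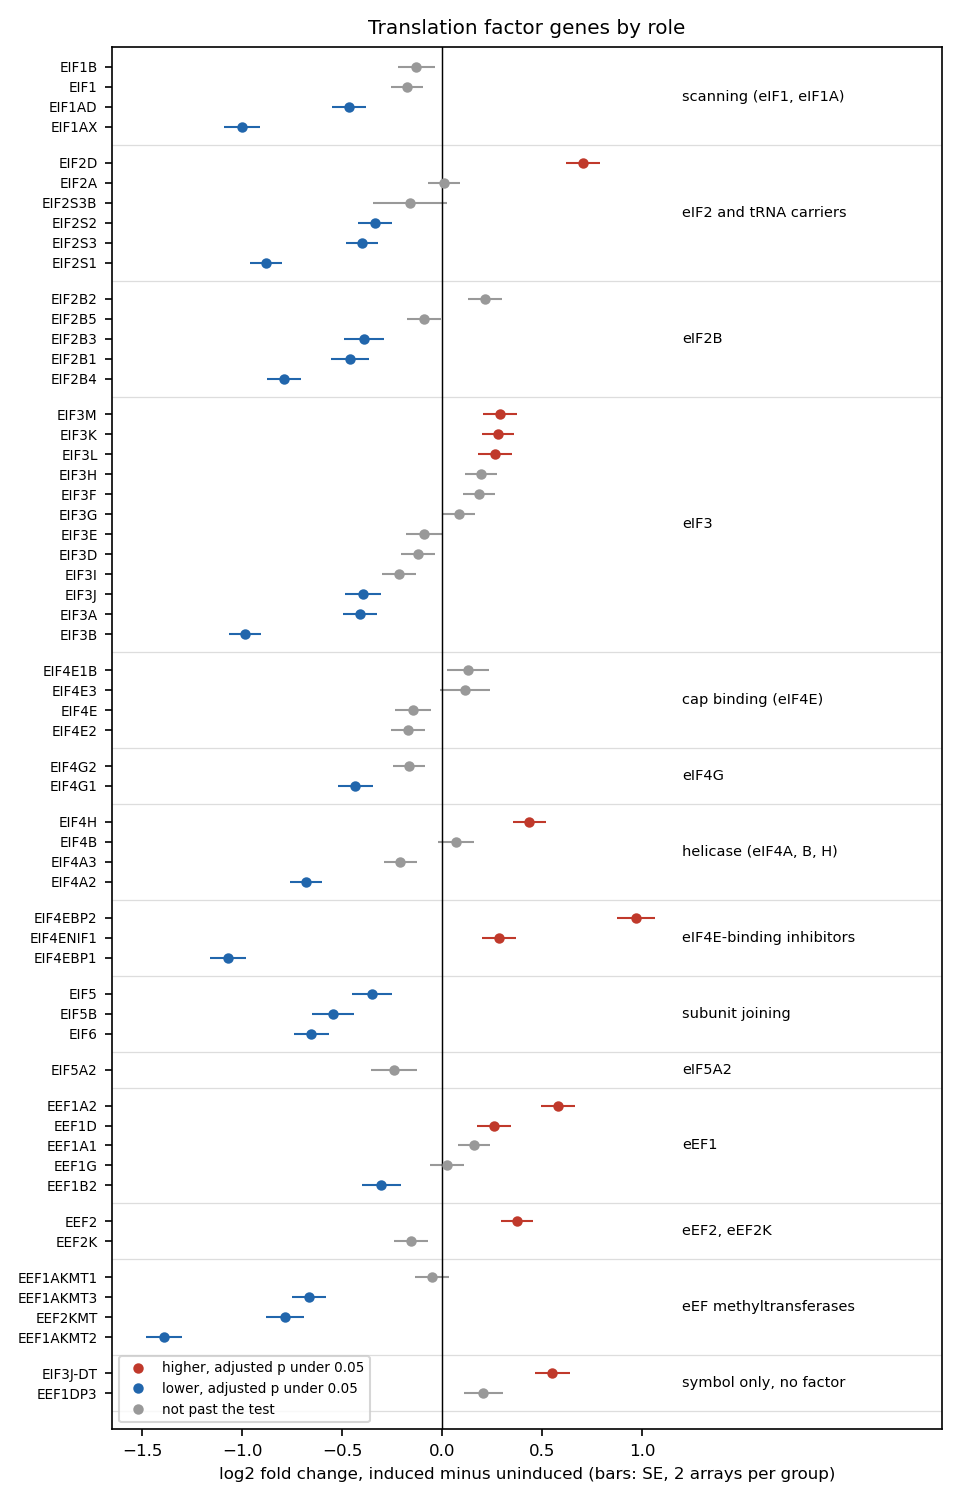
Log2 fold change (x axis, induced minus uninduced, limma) of the translation factors, grouped by role, with each point a gene and each colour its call at an adjusted p under 0.05. EIF1AY is left out. Bars are SEs over 2 arrays per group. Called falls without a called rise occur among the methyltransferases, the joining factors, eIF2B, the eIF1 and eIF1A genes, and eIF4G. Both directions occur among the eIF3 subunits, the eIF4E-binding inhibitors, eIF2 with the tRNA carriers, the helicase group and eEF1.

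The factors that recognise the start codon were lower or did not pass the test. EIF1AX, which encodes the scanning factor eIF1A, read 10.62 and 10.69 log2 units on the uninduced arrays and 9.58 and 9.73 on the induced arrays. The induced arrays were lower without overlap, a 2-fold fall (log2 fold change -1, SE 0.092, limma adjusted p = 7.8e-05). A second EIF1AX probe set fell by 0.97 on the log2 scale. EIF1AD, a nuclear protein with an eIF1A-like domain, read 9.39 and 9.49 uninduced and 8.96 and 8.99 induced, a fall of 0.47 on the log2 scale (adjusted p = 0.00286 in limma). EIF1AY was also called lower, which makes 3 of the 5 genes of this role (60%, against 24.6% of all genes). However, its probe set lay below the median level of the blood, endothelial and fibroblast markers and dropped out with the dim genes. EIF1, which guards start codon choice, had a log2 fold change of -0.18 and its paralog EIF1B one of -0.13, and neither passed the test.

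All 3 subunits of eIF2, the carrier of the initiator tRNA, fell (100%, against 24.6% of all genes and 37.6% without dim genes). EIF2S1, the alpha subunit that the stress kinases phosphorylate, read 11.10 and 11.07 uninduced and 10.21 and 10.20 induced. It fell 1.84-fold with no overlap (log2 fold change -0.88, SE 0.081, limma adjusted p = 8.0e-05). The beta subunit EIF2S2 (-0.34) and the gamma subunit EIF2S3 (-0.40) fell less, with limma adjusted p = 0.0144 and 0.00509. Against a fold of 1.2 in limma's treat, EIF2S1 kept its call (adjusted p = 4.0e-04), while EIF2S2 (0.535) and EIF2S3 (0.198) did not. Other tRNA carriers went differently. EIF2D, which can bring a tRNA to the ribosome without eIF2, read 8.86 and 8.93 uninduced and 9.56 and 9.64 induced, and rose 1.63-fold (log2 fold change 0.71, SE 0.085, limma adjusted p = 3.3e-04). EIF2A, another alternative carrier, had a log2 fold change of 0.01 with overlapping groups (limma 95% interval -0.18 to 0.20). EIF2S3B, a close relative of EIF2S3, was dim at 5.29 and 5.78 uninduced, around the level of the blood, endothelial and fibroblast markers, and overlapped between groups.

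DENR and MCTS1, which form a pair related to EIF2D in domain layout and function, fell 1.98-fold and 1.43-fold (limma adjusted p = 9.2e-05 and 0.00247). Those values were singled out after they were seen. EIF2D read higher on both induced arrays than on either uninduced array, and DENR and MCTS1 read lower. No exact permutation of 2 against 2 arrays could give a p below 0.33, so that lack of overlap adds little. The contrast was not tested.

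The exchange factor eIF2B has 5 subunits, all measured, of which 3 fell (60%) and none rose. Of all genes 24.6% fell and 20.6% rose, and without dim genes 37.6% and 30.4%. EIF2B4, the delta subunit, read 9.66 and 9.60 uninduced and 8.80 and 8.88 induced. It fell 1.73-fold without overlap (log2 fold change -0.79, SE 0.085, limma adjusted p = 1.7e-04). EIF2B1 (alpha, -0.46) and EIF2B3 (gamma, -0.39) fell as well, though EIF2B3 lost its call with the replicate block (limma adjusted p = 0.0738). EIF2B2 (beta) stood at 0.22, with an adjusted p of 0.0754 in limma, and was called higher without dim genes (0.0306 in limma). The catalytic EIF2B5 (epsilon) stood at -0.09.

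The partner list around eIF2 phosphorylation held its 4 kinases, 2 phosphatase subunits, the transcription factors ATF4 and DDIT3, and IMPACT and GCN1, which act on the kinase GCN2. Of these 10 genes 6 rose (60%, against 20.6% of all genes) and 1 fell (10.0%, against 24.6%), and of the 4 kinases 3 rose. Without dim genes 30.4% of all genes rose and 37.6% fell. EIF2AK4, the amino acid sensor GCN2, rose 3.57-fold, from 9.63 and 9.72 to 11.48 and 11.54 (log2 fold change 1.84, SE 0.086, limma adjusted p = 3.3e-06). DDIT3, the stress transcription factor CHOP, rose 2.62-fold, from 9.30 and 9.22 to 10.61 and 10.69. Among genes named after their values were seen, EIF2AK2 (PKR, sensor of double-stranded RNA) rose 1.86-fold and EIF2AK3 (PERK) rose by 0.38 on the log2 scale. EIF2AK1, the heme-regulated kinase, had a log2 fold change of -0.21 and did not pass, and IMPACT rose 1.23-fold. PPP1R15B, which brings a phosphatase to eIF2 at rest, fell 2.11-fold and its inducible relative PPP1R15A rose 1.33-fold. ATF4, whose mRNA is translated more when eIF2 is phosphorylated, read 10.76 and 10.68 uninduced and 10.73 and 10.74 induced, so its groups overlapped. Phosphorylation was not measured.

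**Figure D2:**
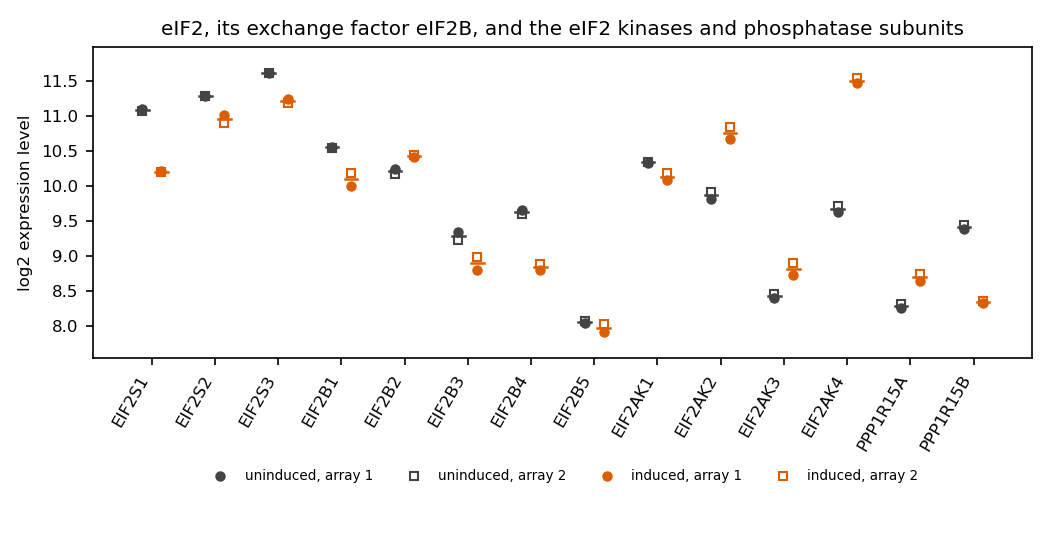
Log2 expression level (y axis) on each of the 4 arrays for the eIF2 subunits, the eIF2B subunits, the eIF2 kinases and the phosphatase subunits, with bars at the group means. The 3 eIF2 subunits, EIF2B1, EIF2B3, EIF2B4 and PPP1R15B lie lower on the induced arrays, and EIF2AK4 shows the widest rise.

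Subunits of eIF3, the scaffold that brings the small subunit to the mRNA, were called in both directions. Among 12 measured subunits, 3 were called higher (25.0%) and 3 lower (25.0%), against 20.6% and 24.6% of all genes. Without dim genes 30.4% of all genes rose and 37.6% fell. In that fit EIF3F and EIF3H were also called higher and EIF3I lower. EIF3B, part of the core, read 10.81 and 10.76 uninduced and 9.79 and 9.81 induced, a 1.98-fold fall with no overlap (log2 fold change -0.99, SE 0.082, limma adjusted p = 4.7e-05). EIF3A, the largest subunit, fell by 0.41 and the loosely bound EIF3J by 0.40 on the log2 scale (limma adjusted p = 0.00493 and 0.00756). EIF3M read 11.50 and 11.56 uninduced and 11.84 and 11.80 induced, and rose by 0.29 (limma adjusted p = 0.0233). EIF3K read 11.90 on both uninduced arrays and 12.21 and 12.15 induced, and EIF3L read 11.49 and 11.59 uninduced and 11.81 and 11.80 induced. Both rose, with limma adjusted p = 0.0262 and 0.0374, and by at most 1.21-fold. The other 6 subunits lay between -0.22 (EIF3I) and 0.20 (EIF3H).

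Subunits were also grouped after the values were seen. Those with PCI or MPN domains other than EIF3A (EIF3E, EIF3F, EIF3H, EIF3K, EIF3L and EIF3M) had 3 rises (50%, against 20.6% of all genes) and no fall. Their median log2 fold change was 0.23. EIF3A, EIF3B, EIF3G and EIF3I had 2 falls (50%, against 24.6%) and no rise with a median of -0.31. EIF3A itself holds a PCI domain and was called lower, and is placed here with the core it forms. Counted in the first group, it would give that group a fall. None of the 3 rises kept its call against a fold of 1.2 in limma's treat. Of the 2 falls, EIF3B kept its call there and EIF3A did not. EIF3D (-0.12) and EIF3J (-0.40, called lower) are in neither group. This grouping was not tested.

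**Figure D3:**
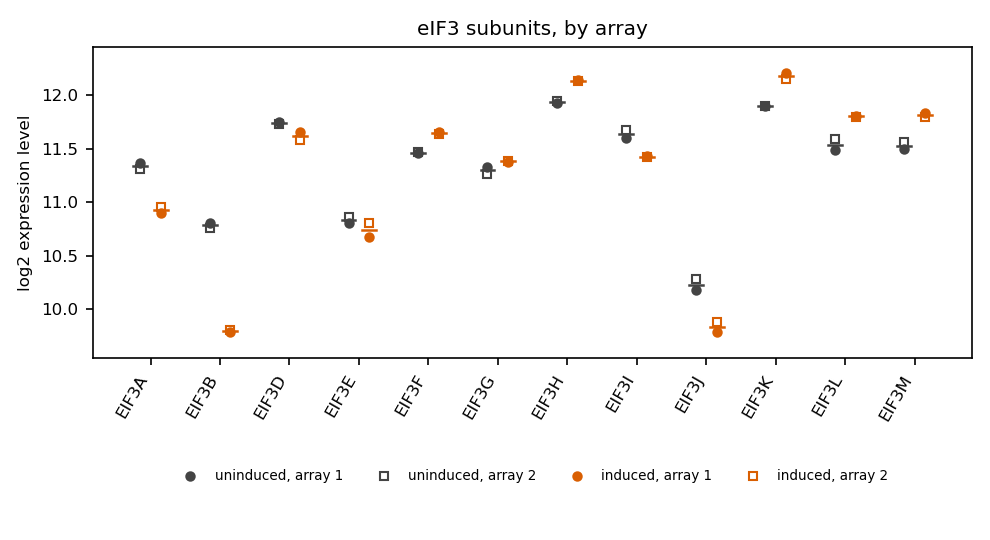
Log2 expression level (y axis) of the 12 eIF3 subunits on each array, with group means as bars. EIF3B shows the widest gap between the groups, lower on the induced arrays, and EIF3K, EIF3L and EIF3M are higher on the induced arrays by under 0.30 log2 units.

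EIF3J-DT is transcribed from the opposite strand beside EIF3J, and these neighbours moved in opposite directions. EIF3J-DT read 8.53 and 8.42 uninduced and 8.99 and 9.06 induced, and rose 1.46-fold (log2 fold change 0.55, SE 0.088, limma adjusted p = 0.00139). EIF3J read 10.18 and 10.28 uninduced and 9.79 and 9.88 induced. In RefSeq (GRCh38.p14) the starts of EIF3J-DT lie 224 and 247 bases before that of EIF3J on chromosome 15. The stretch that holds these opposed starts is shown, at chr15:44536897-44537146 (plus strand, 250 bases before the EIF3J start), with matches to the GC box GGGCGG in capitals on either strand. It holds 4 of them.

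EIF3J: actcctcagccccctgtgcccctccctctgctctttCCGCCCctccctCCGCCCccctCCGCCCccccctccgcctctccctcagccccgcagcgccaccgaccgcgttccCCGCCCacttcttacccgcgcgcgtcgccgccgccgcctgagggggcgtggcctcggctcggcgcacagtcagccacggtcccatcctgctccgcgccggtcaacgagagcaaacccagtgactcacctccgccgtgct

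None of the 4 measured cap-binding genes passed the test, although EIF4E2 did with an intensity trend and robust prior (adjusted p = 0.0397 in limma). EIF4E, which binds the cap, read 6.25 and 6.11 uninduced and 6.06 and 6.01 induced, a difference of -0.15 (limma adjusted p = 0.249). At about 6 log2 units this probe set was near the level of markers of absent cell types, which limits what it can show. EIF4E2, which binds the cap but represses translation, read 10.02 and 9.94 uninduced and 9.82 and 9.80 induced, at -0.17 (adjusted p = 0.148 in limma). EIF4E1B stood at 0.13 and EIF4E3 at 0.12, with overlapping groups.

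The genes that hold eIF4E back moved in opposite directions. EIF4EBP1, a 4E-binding protein controlled by mTORC1, read 9.63 and 9.60 uninduced and 8.62 and 8.47 induced. It fell 2.10-fold (log2 fold change -1.07, SE 0.090, limma adjusted p = 5.0e-05). EIF4EBP2, its paralog, read 10.01 and 10.04 uninduced and 10.90 and 11.09 induced. It rose 1.96-fold, the largest rise of any member (log2 fold change 0.97, SE 0.095, limma adjusted p = 1.1e-04). Neither gene's groups overlapped, and the difference between the paralogs' log2 fold changes was -2.04. That difference was not tested, and no exact permutation of 2 against 2 arrays could give a p below 0.33. EIF4ENIF1, the carrier that takes eIF4E into the nucleus, read 8.72 and 8.65 uninduced and 8.93 and 9.01 induced, and rose by 0.29 (limma adjusted p = 0.0286), a call lost in each fit that left out an array.

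EIF4G1, the scaffold, read 10.23 and 10.21 uninduced and 9.72 and 9.85 induced, and fell 1.35-fold (log2 fold change -0.44, limma adjusted p = 0.00467). EIF4G2, a relative that lacks the eIF4E site, had a log2 fold change of -0.17 and did not pass. EIF4A2, the helicase, read 10.48 and 10.47 uninduced and 9.77 and 9.82 induced, and fell 1.60-fold without overlap (log2 fold change -0.68, SE 0.082, limma adjusted p = 3.2e-04). EIF4H, which stimulates that helicase, went the other way, from 12.43 and 12.38 to 12.86 and 12.82, a 1.35-fold rise (limma adjusted p = 0.00338). A second EIF4H probe set gave 0.43 and a second EIF4A2 probe set, with a wide error, -0.46. EIF4B, the other helicase cofactor, stood at 0.07 and EIF4A3, the exon junction helicase, at -0.21.

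Of 12 partners that regulate the cap complex, 3 rose (25.0%, against 20.6% of all genes) and 4 fell (33.3%, against 24.6%). Without dim genes 30.4% of all genes rose and 37.6% fell. MKNK2, the kinase that phosphorylates eIF4E, rose 3.03-fold, from 8.92 and 8.88 to 10.52 and 10.48 (log2 fold change 1.60, SE 0.082, limma adjusted p = 4.8e-06). DEPTOR, an inhibitor within mTOR complexes, rose 1.99-fold. Named after their values were seen, PDCD4, an inhibitor of eIF4A, rose 1.63-fold, while MTOR fell 1.59-fold, the S6 kinase RPS6KB1 fell 1.52-fold and LARP1 fell by 0.33 on the log2 scale. The poly(A)-binding list had 1 fall (14.3%), that of PABPC4 (1.53-fold), and no rise among 7 genes measured. Its next largest change, that of PAIP1 (log2 fold change -0.19), did not pass.

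**Figure D4:**
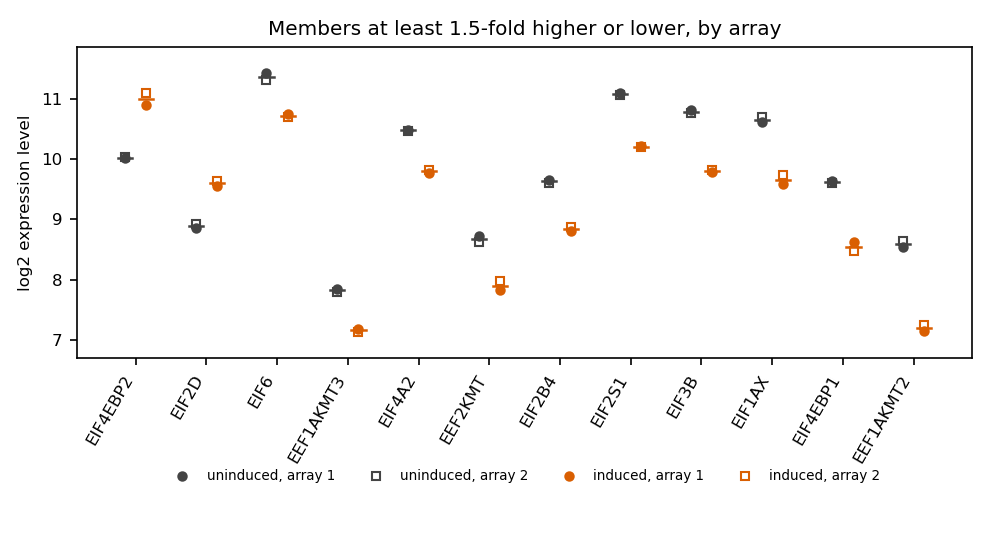
Log2 expression level (y axis) on each array for the 12 translation factors called at least 1.5-fold higher or lower, with bars at the group means. EIF4EBP2 and EIF2D lie higher on the induced arrays and the other 10 lie lower, with no overlap between groups.

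All 3 factors of subunit joining fell (100%, against 24.6% of all genes and 37.6% without dim genes). Against a fold of 1.2 in limma's treat, EIF6 kept its call (adjusted p = 0.00601), while EIF5B (0.0545) and EIF5 (0.511) did not. EIF6, which keeps the large subunit apart until it is needed, read 11.43 and 11.31 uninduced and 10.74 and 10.69 induced, a 1.58-fold fall (log2 fold change -0.66, SE 0.088, limma adjusted p = 5.5e-04). EIF5B, the GTPase that joins the subunits, read 9.78 and 9.93 uninduced and 9.20 and 9.42 induced, a 1.46-fold fall (limma adjusted p = 0.00404). EIF5, which triggers GTP hydrolysis on eIF2, fell by 0.35 on the log2 scale (limma adjusted p = 0.0216). EIF5A2, which carries the hypusine residue, read 8.45 and 8.55 uninduced and 8.11 and 8.41 induced, at -0.24 (limma adjusted p = 0.142). EIF5A itself had no probe set of its own.

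Of 7 elongation factors and regulators, 3 rose (42.9%, against 20.6% of all genes and 30.4% without dim genes). The 1 fall made 14.3%, against 24.6% and 37.6%. The rises include EEF1D, whose probe sets disagreed in direction, as given below. EEF1A2, the tissue-restricted form of eEF1A, read 10.45 and 10.37 uninduced and 11.02 and 10.96 induced. It rose 1.49-fold without overlap (log2 fold change 0.58, SE 0.085, limma adjusted p = 8.9e-04). EEF1A1, the widespread form, read 13.52 and 13.53 uninduced and 13.66 and 13.71 induced. Its log2 fold change of 0.16 did not pass (limma adjusted p = 0.164), though it did with an intensity trend (3.6e-04 in limma), and EEF1A1 has many processed pseudogenes whose signal its probes may share. The paralogs' log2 fold changes differed by -0.42, which was not tested, and the pairs EIF4G1 and EIF4G2, EIF4E and EIF4E2, EIF4E and EIF4E3, and EIF1 and EIF1B differed by -0.27 to 0.03. EEF2 read 12.64 on both uninduced arrays and 13.02 and 13.01 induced, a rise of 0.38 on the log2 scale (SE 0.081, limma adjusted p = 0.00638). EEF2K, the kinase that inhibits eEF2, stood at -0.16 without passing.

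Among the exchange subunits of eEF1, EEF1B2 fell by 0.31 (limma adjusted p = 0.0371) and EEF1G was level at 0.03 with overlapping groups. EEF1D read 11.72 and 11.62 uninduced and 11.94 and 11.92 induced on its brighter probe set (0.26, limma adjusted p = 0.0404). Its second probe set gave -0.31 (limma adjusted p = 0.0987), so the probe sets disagreed in direction.

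The enzymes that methylate elongation factors held the largest fall. EEF1AKMT2, a lysine methyltransferase of eEF1A, read 8.54 and 8.64 uninduced and 7.15 and 7.25 induced. It fell 2.62-fold with no overlap (log2 fold change -1.39, SE 0.089, limma adjusted p = 1.3e-05). EEF2KMT, which methylates eEF2, read 8.73 and 8.63 uninduced and 7.82 and 7.97 induced, a 1.72-fold fall (limma adjusted p = 3.0e-04). EEF1AKMT3 read 7.85 and 7.79 uninduced and 7.18 and 7.13 induced, a 1.59-fold fall (limma adjusted p = 3.9e-04). EEF1AKMT1 overlapped between groups at -0.05, and its sign flipped under another scaling.

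Partners in later steps were counted against the 20.6% of all genes that rose and the 24.6% that fell. Of 10 termination, rescue and recycling genes, 7 fell (70.0%) and 2 rose (20.0%). ABCE1, which splits the ribosome after termination, fell 3.95-fold, from 9.57 and 9.70 to 7.53 and 7.78 (log2 fold change -1.98, SE 0.11, limma adjusted p = 6.7e-06). NEMF, which marks stalled large subunits, rose 2.24-fold. The list around the hypusine of eIF5A and the diphthamide of eEF2 had 11 measured genes, of which 7 fell (63.6%) and none rose. The enzymes that form hypusine, DHPS (0.12) and DOHH (-0.07), did not pass. The falls were in 3 polyamine genes, SRM (spermidine synthase, 2.64-fold), ODC1 and AMD1, and in 4 diphthamide genes, DPH2 (2.02-fold), DPH3, DPH7 and DNAJC24.

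Mitochondrial factors fell in 6 of 9 cases (66.7%) and rose in 2 (22.2%), with GFM1, the mitochondrial elongation factor G, down 1.95-fold and the release factor MTRF1 down 1.61-fold. In selenocysteine insertion 2 of 6 rose and 2 fell (33.3% each): SEPHS1 fell 2.39-fold and SEPSECS rose 1.73-fold. Among exon junction partners of EIF4A3, 1 of 6 rose (16.7%, UPF1 by 1.91-fold) and 3 fell (50%, RBM8A most, by 1.78-fold). Of 10 competitors and modulators, CYFIP2 rose 5.17-fold, BZW2, an eIF5 mimic, fell 2.04-fold, and 3 rose (30.0%) and 6 fell (60%) in all. Over the 81 partners measured of 86, 19 rose (23.5%, against 20.6% of all genes) and 37 fell (45.7%, against 24.6%), with a median log2 fold change of -0.20. The partners were bright too, at a median of 9.18 log2 units, and without dim genes 26.9% of 78 partners rose and 51.3% fell, against 30.4% and 37.6% of all genes. The partner list first held EIPR1 too. It was taken out after its value was seen because it is not a translation gene, and with it 20 of 82 rose.

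The sequence at the annotated start was read for the 44 of 56 factors found in RefSeq's promoter table (GRCh38.p14). A TOP start is taken here as a C at the annotated start followed by at least 4 pyrimidines. It was present in 13 factors (29.5%), against 6.27% of 14237 tested genes with a promoter in the table and 4.07% of all 35116 promoters. The 13 starts are shown because calls are counted below for factors with and without one. Each line gives 15 bases before the start and 15 from it, with the run of pyrimidines in capitals.

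EIF2D (chr1:206612451-206612480, minus strand): ggtttccagccgggcCCTTTTCgcggccgg
EEF1B2 (chr2:206159880-206159909, plus strand): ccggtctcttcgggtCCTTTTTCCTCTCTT
EIF2A (chr3:150546772-150546801, plus strand): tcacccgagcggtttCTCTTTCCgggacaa
EIF4A2 (chr3:186783562-186783591, plus strand): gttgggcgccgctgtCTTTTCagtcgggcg
EEF1A1 (chr6:73521018-73521047, minus strand): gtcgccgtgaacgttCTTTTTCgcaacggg
EIF3F (chr11:7987322-7987351, plus strand): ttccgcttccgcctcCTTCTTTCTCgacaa
EIF3M (chr11:32583816-32583845, plus strand): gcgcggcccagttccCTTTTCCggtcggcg
EIF2S3B (chr12:10505875-10505904, plus strand): ggggtgactttcttcCTCTTTTggcaacat
EIF4B (chr12:53006441-53006470, plus strand): ttgcctcatccgggtCTTTTgcgttctctt
EEF2 (chr19:3985449-3985478, minus strand): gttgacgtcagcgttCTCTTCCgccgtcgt
EIF3K (chr19:38619173-38619202, plus strand): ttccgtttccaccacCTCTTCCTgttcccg
EIF3D (chr22:36529152-36529181, minus strand): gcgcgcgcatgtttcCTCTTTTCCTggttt
EIF2S3 (chrX:24054941-24054970, plus strand): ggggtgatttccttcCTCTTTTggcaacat

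Starts of 6 factors without the run follow for contrast, chosen for large changes, in lower case because they hold no such run.

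EEF1AKMT2 (chr10:124791873-124791902, minus strand): ccgctcgtccgctctgcctgtgccccgtct
EIF1AX (chrX:20141824-20141853, minus strand): gcaaagagtcgcggcgccatttgctgccgc
EIF3B (chr7:2354812-2354841, plus strand): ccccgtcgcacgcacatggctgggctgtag
EIF2S1 (chr14:67360313-67360342, plus strand): gcgaggaggttccgcatgcgcggtggagtg
EIF2B4 (chr2:27370324-27370353, minus strand): ctccgtgaccacggcgggcggagcctagga
EIF4EBP2 (chr10:70404130-70404159, plus strand): ctcccgccttcgcccgcttccggtcgtcgt

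Of the 13 factors with a TOP start, 4 rose (30.8%: EIF2D, EEF2, EIF3M and EIF3K) and 3 fell (23.1%: EIF4A2, EIF2S3 and EEF1B2). The other 6 did not pass, and the median log2 fold change of the 13 was 0.07. Of the 31 without, 3 rose (9.68%) and 14 fell (45.2%), with a median of -0.22. Of all 13345 tested genes without a TOP start, 21.3% rose and 25.8% fell. Among all genes left after dim genes were taken out, 30.4% rose and 37.6% fell. Across all settings the first median stayed between 0.02 and 0.13 and the second between -0.26 and -0.17. Without the dim EIF2S3B the first was 0.12. Over all 892 tested genes with a TOP start, 21.9% rose and 27.5% fell and the median was about 0. Of 36 ribosomal protein genes among them 6 rose (16.7%) and 3 fell (8.33%) with a median of 0.01. This is a description of transcript levels with no test, and the split was looked at after the changes were known. Translation was not measured.

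**Figure D5:**
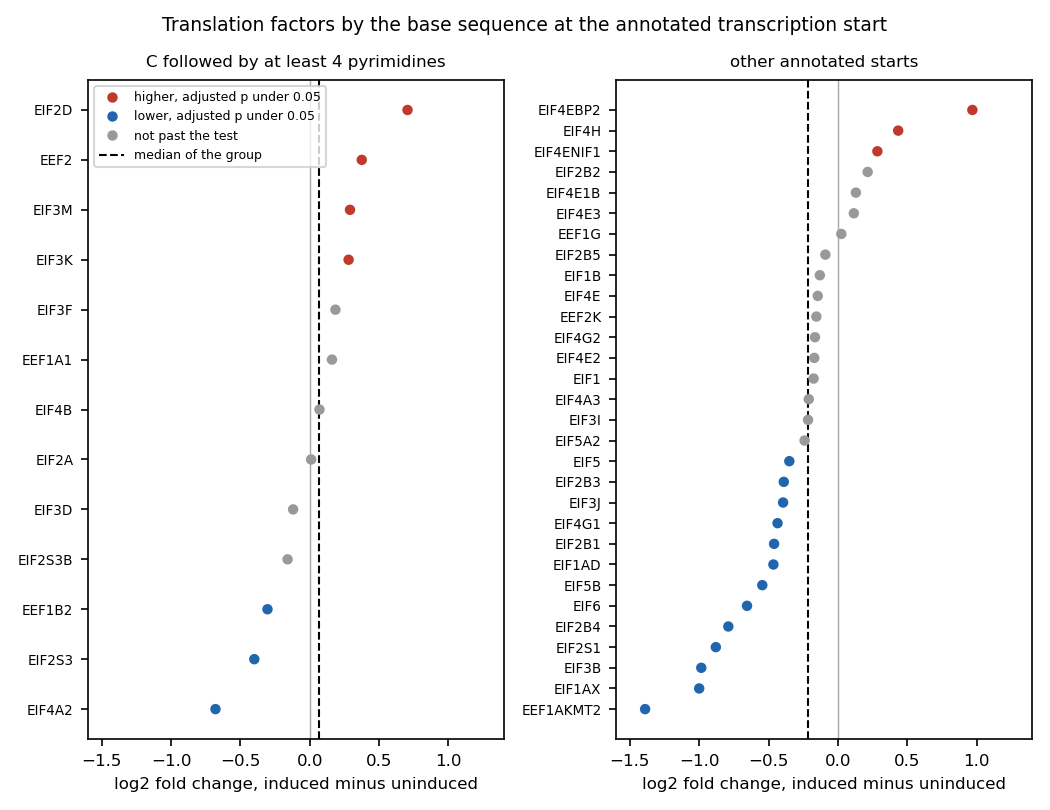
Log2 fold change (x axis, induced minus uninduced) of factors with a TOP start (left) and with other annotated starts (right), each row a gene, coloured by call, with the dashed line at the group's median. The median is 0.07 on the left, and on the right it lies below 0 with most of the called falls.

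Short motifs were counted on both strands in the 300 bases around each start (250 before and 50 after), independently of one another, so that matches may overlap. The E-box CACGTG, the site of MYC and its relatives, was in 11 of 44 factors (25.0%) against 10.9% of tested genes and 7.26% of all promoters. It was in 2 of 17 factors that fell and 2 of 7 that rose. The cell-cycle element TTTGAA was in 3 factors (6.82%) against 15.7% of tested genes and 15.2% of promoters. CCGGAA, the core of ETS sites, was in 43.2% against 27.0% and 17.2%, and the GC box GGGCGG in 79.5% against 65.9% and 45.0%. CCAAT was in 40.9% against 42.2% and 34.6%. The decamer of the p53 site was in 1 factor (2.27%) against 8.19% and 6.63%. A match is a description of letters in this window and not of binding.

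Promoters are printed for 3 genes of the cap step and for EIF2S1, each as the 250 bases before the start with the motifs above in capitals. EIF4E at chr4:98929134-98929383 (minus strand) holds E-boxes 225 and 72 bases before the start. EIF4G1 at chr3:184314356-184314605 (plus strand, the first of its annotated starts) holds them 144 and 67 bases before. EIF4EBP2 at chr10:70403895-70404144 (plus strand) holds GC boxes 112 and 68 bases before. EIF2S1 at chr14:67360078-67360327 (plus strand) holds TTTGAA 221 bases before.

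EIF4E: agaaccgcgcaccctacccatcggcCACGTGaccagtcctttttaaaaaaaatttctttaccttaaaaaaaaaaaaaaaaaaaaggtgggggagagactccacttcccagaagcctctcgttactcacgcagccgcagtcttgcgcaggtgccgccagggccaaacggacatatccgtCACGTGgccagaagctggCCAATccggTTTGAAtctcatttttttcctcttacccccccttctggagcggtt
EIF4G1: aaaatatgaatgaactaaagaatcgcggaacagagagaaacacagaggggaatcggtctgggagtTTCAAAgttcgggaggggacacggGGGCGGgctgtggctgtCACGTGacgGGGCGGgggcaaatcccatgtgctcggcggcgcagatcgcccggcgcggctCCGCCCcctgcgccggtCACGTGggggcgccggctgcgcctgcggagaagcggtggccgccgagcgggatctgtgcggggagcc
EIF4EBP2: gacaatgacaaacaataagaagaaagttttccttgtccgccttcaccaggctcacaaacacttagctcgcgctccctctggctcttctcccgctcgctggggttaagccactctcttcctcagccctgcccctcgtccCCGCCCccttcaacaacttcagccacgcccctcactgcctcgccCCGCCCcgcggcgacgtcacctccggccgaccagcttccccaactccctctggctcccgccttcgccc
EIF2S1: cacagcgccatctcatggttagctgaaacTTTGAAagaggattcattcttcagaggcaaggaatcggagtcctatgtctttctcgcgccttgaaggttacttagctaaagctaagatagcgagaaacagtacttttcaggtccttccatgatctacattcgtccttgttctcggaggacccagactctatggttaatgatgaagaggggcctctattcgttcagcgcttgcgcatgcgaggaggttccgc

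EIF4E and EIF4G1 each hold a pair of E-boxes. EIF4G1 fell and EIF4E did not pass the test, but the EIF4E probe set was dim (6.25 and 6.11 uninduced), which limits what it can show. EIF4EBP2 rose and EIF2S1 fell with no E-box in the stretch shown. Any link between these motifs and the changes was not tested.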

How the data were processed

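Biotin-labelled single-stranded cDNA from total RNA was hybridised to Affymetrix arrays, per the labels' protocols. RMA in Affymetrix Expression Console made the deposited values, which are log2 expression levels, per the submitters' processing notes. Genome build, versions and settings were not given in the sources used here. Since RMA equalises the arrays' distributions, it hides a shift shared by all transcripts, and it compresses changes of dim genes.

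Of 33297 probe sets, the platform annotation gave 1 symbol to 19460, several to 1754 and none to 12083. Gene IDs of 19429 were found in RefSeq (GRCh38.p14), which updated the symbols. The brightest probe set stood for each of 18417 genes, and a probe set with several genes was never named. limma 3.58.1 in R 4.3.3 (lmFit, eBayes, two-sided, no covariate, 2 residual degrees of freedom and 7.20 in total) compared induced with uninduced arrays, with Benjamini-Hochberg adjustment over all genes, and was tested on simulated data. SEs are limma's. Depth has no counterpart on arrays, and their number limits the precision. Promoters and figures used Python 3.11.15 with pandas 2.3.3, numpy 2.4.6 and matplotlib 3.10.9.

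The members, roles, partner lists and motifs were chosen with earlier results of these data known. Array values were given for the 12 largest called rises and falls, for the member of each role with the largest change, and for EEF1A1, EEF2, EIF4E, EIF4EBP1, EIF2S1 and EIF5A where measured; of each partner list the 2 largest changes were named. Other partners, the grouping of eIF3 subunits and the split by TOP start were chosen after values were seen, and EIPR1 was taken off the partner list after its value was seen. Alternatives were quantile normalization again, centring each array, leaving out genes under the 40th percentile, averaging a gene's probe sets, an intensity trend with a robust prior, the replicate number as a block, treat against a fold of 1.2, leaving out each array and the annotation's own symbols.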

Additional observations from a re-analysis of the deposited data

Results flagged for a closer look

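Probe sets assigned to several genes, at least 1 of them a translation factor, were not used for any comparison. There were 13 of them, of which 8 were called lower, 0 higher and 5 not called (limma, adjusted over all probe sets), that is 61.5% lower against 20.7% of the 1754 probe sets with several genes and 18.5% of all 33297 (higher: 15.6% and 13.8%), with log2 fold changes from -1.615 to -0.115. They are not attributed to a gene. Groups of 2 arrays were too small to look for an outlying array.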

How the results depend on the processing

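Among the results for named members under the alternatives, 289 kept their direction and side of the threshold, 43 lost the call, 2 gained one and 1 turned: EEF1D was -0.022 (limma adjusted p = 0.872) with the mean of its probe sets, whose probe sets disagree. At least 1.5-fold rises numbered 4 with quantile normalization again and 4 with arrays centred on their medians (main 2), where the members' median was -0.123 and -0.107. Those scalings moved the median of all genes by 0.035 and 0.05. Against a fold of 1.2, limma's treat called 5479 genes, 4 members higher, 10 lower and 12 partners higher. In that fit 6.9% of members rose and 17.2% fell, against 13.6% and 16.2% of all genes. Leaving out each array in turn gave 4959 to 6904 genes, 3 to 7 members higher, 10 to 19 lower, 2 to 4 at least 1.5-fold higher, 10 to 11 at least 1.5-fold lower, 12 to 17 partners higher, 20 to 32 lower and a median of -0.168 to -0.138; the lone array of a group is then assumed to vary like the other group. With the replicate number as a block (replicate block), 7820 genes, 8 members higher and 21 lower were called, and EIF4ENIF1, EIF3L, EEF1D and EIF2B3 lost their calls. In that fit 13.8% of members rose and 36.2% fell, against 19.5% and 23% of all genes. Same-numbered arrays deviated together at r = 0.225, but 2 pairs do not show that the numbers pair the samples. With an intensity trend, 15 members were higher (25.9%, against 21.7% of all genes in that fit) and 28 lower (48.3%, against 26%). The partner list as first written, an alternative added after seeing the data, gave 20 higher and 37 lower. The cause of these shifts was not tested. Dim probe sets such as those of EIF4E, EIF2S3B and EIF1AY lie near the background of the arrays, which limits what they show.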
